A study of Homo sapiens with 6 samples.

Results

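PAX2, TLX1 and LBX1 on chromosome 10, NKX2-3 on the same arm 1213 kb from PAX2, and BARHL1 on chromosome 9 encode transcription factors of the embryo, and this account follows 2 histone marks around their start sites in a lung cancer line. The 5 genes were chosen from the H3K27me3 lists themselves: the megabases 102 to 103 of chromosome 10 and 135 to 136 of chromosome 9 had large increases of H3K27me3 covered length after metformin, and intervals of all 4 peak lists within 20 kb of each start site were then taken. NKX2-3 lies outside both of those megabases and was taken with the others. The rule found 51 of 85579 H3K27me3 intervals in control cells, 51 of 85952 after metformin, 16 of 50585 H3K4me3 intervals in control cells and 13 of 53454 after metformin, or 131 of 275570 in all. The interval closest to the 20 kb limit on its inner side was a control H3K27me3 interval of 601 bp, 19865 bp from the PAX2 start. The closest on its outer side was a control H3K27me3 interval of 1867 bp, 20108 bp from the NKX2-3 start.

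The cells were H1299, an established human line of non-small cell lung cancer. One group received no treatment and the other 5 mM metformin, a biguanide used in type 2 diabetes. Each group gave 1 H3K4me3 and 1 H3K27me3 library by chromatin immunoprecipitation and sequencing (ChIP-seq), so no value below has a replicate error and no test between conditions was possible. The length of the treatment is not given in the sources used here, and all 4 libraries come from a single line.

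H3K27me3, the trimethylated lysine 27 of histone H3, is laid down by the Polycomb complex PRC2 and marks genes held silent, often in wide domains over developmental regulators. H3K4me3 marks CpG-rich promoters, most of them active, and promoters that carry both marks are called bivalent. PAX2, a paired-box factor, acts in kidney, eye and ear formation. The other genes encode homeobox factors. TLX1 is needed to form the spleen and is an oncogene when misexpressed in T-cell leukaemia, LBX1 guides migrating muscle precursors and dorsal spinal neurons, NKX2-3 acts in spleen and gut lymphoid tissue, and BARHL1 acts in inner ear hair cells and cerebellar neurons.

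The start sites, as the rule gives them on hg19, were chr10:101292690 for NKX2-3, chr10:102505468 for PAX2, chr10:102891061 for TLX1, chr10:102988717 for LBX1 and chr9:135457993 for BARHL1. TLX1 lay 386 kb from PAX2 and 97.7 kb from LBX1, so no windows overlapped. RefSeq promoter sequences matched 4 of the 5 genes, all on the plus strand, and none was held for LBX1, which is read from the minus strand. The 250 bases before each RefSeq start are shown, with each CG dinucleotide, the base step by which CpG-rich promoters are known, in capitals. They are shown because H3K27me3 calls stopped short of the rule's start sites while H3K4me3 calls stood beside most of those. The RefSeq starts are on GRCh38.p14 and were not placed on hg19, so the calls were not located relative to these bases. RefSeq lists 2 starts for PAX2, of which the second is shown.
PAX2: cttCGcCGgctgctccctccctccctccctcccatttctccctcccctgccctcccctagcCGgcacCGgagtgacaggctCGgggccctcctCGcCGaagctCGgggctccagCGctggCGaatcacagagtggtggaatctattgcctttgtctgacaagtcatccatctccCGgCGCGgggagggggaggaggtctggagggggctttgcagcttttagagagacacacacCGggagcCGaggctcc
TLX1: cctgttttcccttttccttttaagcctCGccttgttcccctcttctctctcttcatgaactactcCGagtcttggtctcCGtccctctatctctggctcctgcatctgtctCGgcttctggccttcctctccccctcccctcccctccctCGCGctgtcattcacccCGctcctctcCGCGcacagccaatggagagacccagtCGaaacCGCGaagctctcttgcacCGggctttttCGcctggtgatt
NKX2-3: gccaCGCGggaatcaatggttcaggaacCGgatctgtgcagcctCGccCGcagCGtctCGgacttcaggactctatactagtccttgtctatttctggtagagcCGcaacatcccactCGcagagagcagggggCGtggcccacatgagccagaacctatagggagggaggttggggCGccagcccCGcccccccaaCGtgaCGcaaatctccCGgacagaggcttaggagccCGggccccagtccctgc
BARHL1: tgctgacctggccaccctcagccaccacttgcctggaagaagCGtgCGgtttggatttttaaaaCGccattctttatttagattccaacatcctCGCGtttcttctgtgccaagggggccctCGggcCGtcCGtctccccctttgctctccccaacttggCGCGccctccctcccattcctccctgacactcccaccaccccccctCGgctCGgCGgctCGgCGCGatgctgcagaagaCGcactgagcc

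These sequences held 15 CG for PAX2, 14 for TLX1, 16 for NKX2-3 and 17 for BARHL1, against a median of 11 over 35116 RefSeq promoter windows of the same length. Between 55.2% and 61.0% of those windows had fewer, so the 4 members lay a little above the middle. The first PAX2 start, not shown, had 10. A CCAAT box (CCAAT, searched on both strands) was found in TLX1 alone and in 32.0% of all windows. A GC box (GGGCGG, both strands) was found in NKX2-3 alone and in 42.6%. No member had TATAAA, which 10.7% of all windows hold on either strand. These matches describe the letters only.

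H3K27me3 covered more of all 5 windows in the metformin list. Each window spans 20 kb on both sides of the start, 40 kb in all, and the covered length is the part of it inside called intervals. PAX2 was the most covered member, with 15.0 kb in control cells and 23.8 kb after metformin, which is 37.5% and 59.4% of the window. TLX1 had 10.1 and 12.9 kb, LBX1 8.38 and 13.7 kb, BARHL1 8.14 and 13.0 kb, and NKX2-3 5.29 and 8.24 kb. The order of the members was therefore PAX2, TLX1, LBX1, BARHL1, NKX2-3 in control cells, and in the metformin list LBX1 and BARHL1 passed TLX1. With 1 library each, it cannot be said which neighbours in this order differ.

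**Figure D1:**
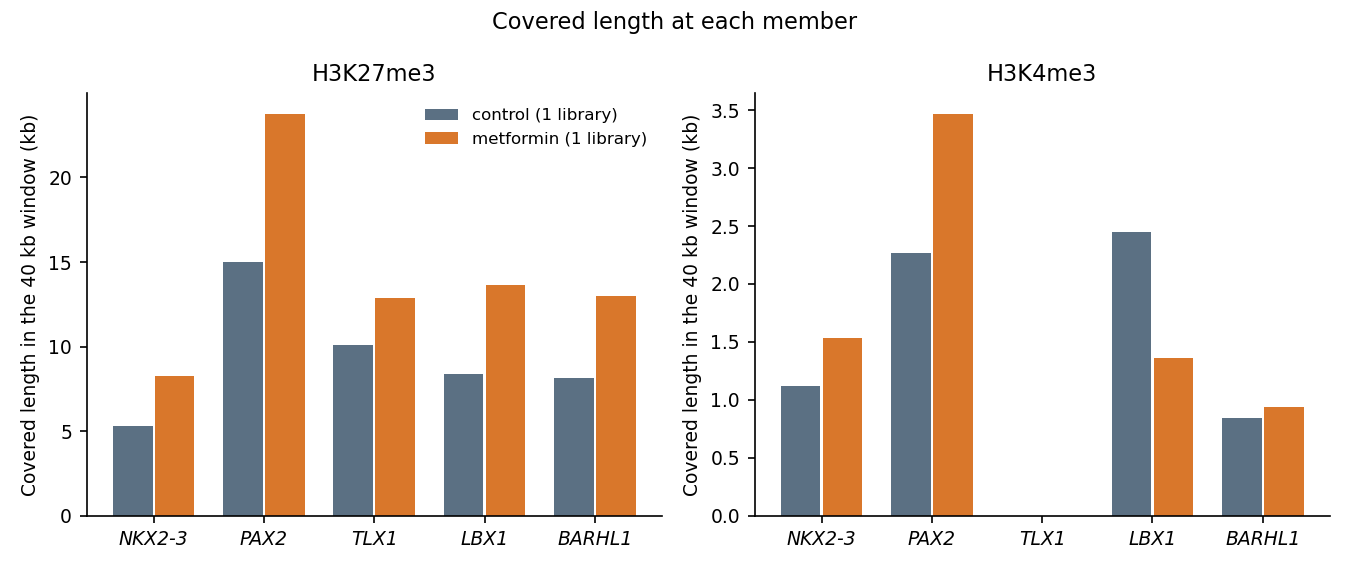
Covered length (kb) of H3K27me3 (left) and H3K4me3 (right) within 20 kb of each start site, from 1 control and 1 metformin library per mark, with no error bars because there are no replicates. H3K27me3 bars are higher after metformin at all 5 genes, most of all at PAX2 (15.0 and 23.8 kb), while H3K4me3 is lower at LBX1 and absent at TLX1.

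The metformin to control ratio of H3K27me3 covered length was 1.63 at LBX1, 1.59 at BARHL1, 1.58 at PAX2, 1.56 at NKX2-3 and 1.27 at TLX1. Summed over the 5 windows, 46.9 kb was covered in control cells and 71.5 kb after metformin (1.52 times), and the mean value per covered base was 1.70 and 1.81, against 1.67 and 1.68 over the whole lists. The value is read as the −log10 of each interval's false discovery rate q, as deposited, and the lists' values were not normalized to each other. The whole list covered 1.09 times as much after metformin, and relative to that the sum was 1.40 times as high and the ratio at TLX1 was 1.17. As a yardstick, all chromosomes were divided into 40 kb tiles, and a tile or window was called higher or lower where its log2 ratio of covered length was 0.32 or more from 0. Without that scaling all 5 members were called higher, and with it TLX1 was not. The 5 calls compare with 26.3% of the 6676 tiles with at least 4 kb of control H3K27me3, and 26.0% of those tiles were called lower. The median tile ratio was 1.01. Because an increase of this covered length chose the genes, the count of 5 says nothing beyond the choice. Ratios under that of LBX1 were found in 92.3% of the tiles and under that of TLX1 in 75.6%. For NKX2-3, PAX2 and BARHL1 the shares were 90.2%, 91.1% and 91.4%. The members thus lay in the upper part of the tiles, as the choice favours, and tiles with larger ratios existed for each. In level, the PAX2 window exceeded 98.3% of all tiles in control cells and 99.5% after metformin, and the other 4 members lay at 92.9% to 96.5% and 94.9% to 97.6%. Unlike the ratio ranks, these are over every tile, also those under 4 kb of control H3K27me3. They use the covered length that chose the genes, so they are a description and were not tested.

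**Figure D2:**
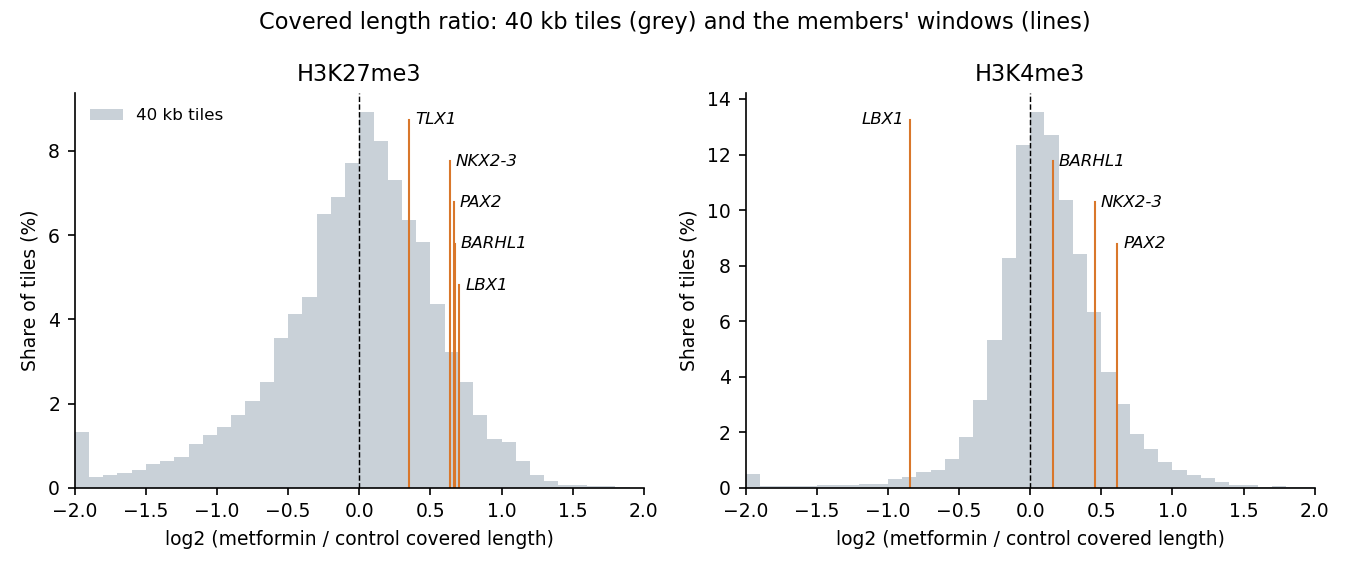
Distribution of the log2 ratio of covered length, metformin over control, over 40 kb tiles (grey bars, share of tiles in %; tiles at or under −2 are drawn in the first bar) for H3K27me3 (6676 tiles) and H3K4me3 (12241 tiles), with the members' windows as orange lines. For H3K27me3 all 5 lines lie to the right of 0 in the upper part of the distribution, above 75.6% (TLX1) to 92.3% (LBX1) of the tiles. For H3K4me3 LBX1 lies far to the left. TLX1 has no H3K4me3, and BARHL1 (841 bp in control) lies under the 1 kb that tiles had to reach.

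At PAX2 the metformin list held 11 H3K27me3 intervals against 15 in control, but wider ones, with median widths of 1282 and 901 bp. The difference centred on chr10:102508604-102520355, a region of 11.8 kb from +3136 to +14887 bp of the start, wider than 99.8% of the metformin list. The control list had 4 separate intervals there, the longest of 4.47 kb (chr10:102512594-102517058), and they covered 62.9% of it. On the other side, a metformin interval of 1282 bp from -1865 to -584 touched no control interval. The nearest control interval on that side ended 1985 bp from the start. The longest interval held by 1 list alone was 1667 bp in metformin (chr10:102521073-102522739) and 610 bp in control (chr10:102497758-102498367). Of the covered control length at PAX2, 70.1% was covered again after metformin, the highest share among the 5 genes.

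At TLX1 the H3K27me3 calls closer than 11895 bp to the start stood on one side of it. The control list had 3418 bp at chr10:102878543-102881960 and 3050 bp at chr10:102884822-102887871, both before the start, and the longest metformin interval was chr10:102874267-102878434 (4168 bp), of which control intervals covered 18.3%. From the start onwards neither list had a call for 11895 bp: the free stretch around the start measured 12.8 kb in control cells and 12.1 kb after metformin. The mark resumed at +12194 in control and at +11895 after metformin. Of the control covered length at TLX1, 42.7% was covered after metformin, and of the metformin length 33.5% in control. Within 10 kb of the start the covered lengths were nearly equal, 4865 bp in the control list and 4827 bp in the metformin list, and with intervals closer than 1 kb merged the ratio was 1.00. The longest intervals of 1 list alone were chr10:102906252-102906936 in control (685 bp) and chr10:102908583-102910322 after metformin (1740 bp).

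At LBX1 control H3K27me3 was led by chr10:102989287-102991635 (2349 bp, from +570 to +2918), and metformin H3K27me3 by chr10:102990921-102994705 (3785 bp, from +2204 to +5988). The metformin interval overlapped 3 control intervals, but only 715 bp (30.4%) of the 2349 bp one, whose part nearer the start was not called after metformin. LBX1 is read toward lower coordinates, so these calls lie before its start. A further metformin interval of 3253 bp (chr10:103005640-103008892) was covered to 36.5% by control. The longest intervals of 1 list alone were chr10:102970256-102971415 in control (1160 bp) and chr10:102980330-102981981 after metformin (1652 bp).

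At BARHL1 both lists held 6 H3K27me3 intervals, with a median width of 556 bp in control and 2157 bp after metformin. The longest was nearly the same, chr9:135451957-135455690 in control (3734 bp) and chr9:135451214-135455247 after metformin (4034 bp), and 3291 bp of it was common to both. The clearest difference lay just past the start, where 418 bp of control H3K27me3 (from +1622 to +2039) stood against 3337 bp after metformin (chr9:135458604-135461940, from +611 to +3947). The longest intervals of 1 list alone were short, 344 bp in control (chr9:135446066-135446409) and 476 bp after metformin (chr9:135449559-135450034).

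At NKX2-3 the intervals were the narrowest of the 5 genes, with median widths of 334 bp in control and 406 bp after metformin. The longest were chr10:101305625-101308109 in control (2485 bp) and chr10:101302609-101307104 after metformin (4496 bp), which overlapped each other. Of its intervals, 3 of 8 in control and 4 of 11 after metformin were overlapped by the other list, where the whole lists had 48.3% and 46.3%. The longest without a partner were chr10:101297782-101298623 in control (842 bp) and chr10:101285766-101286562 after metformin (797 bp). The difference was limited to the window: within 50 kb of the start the covered lengths were 14808 and 15996 bp, a ratio of 1.08.

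**Figure D3:**
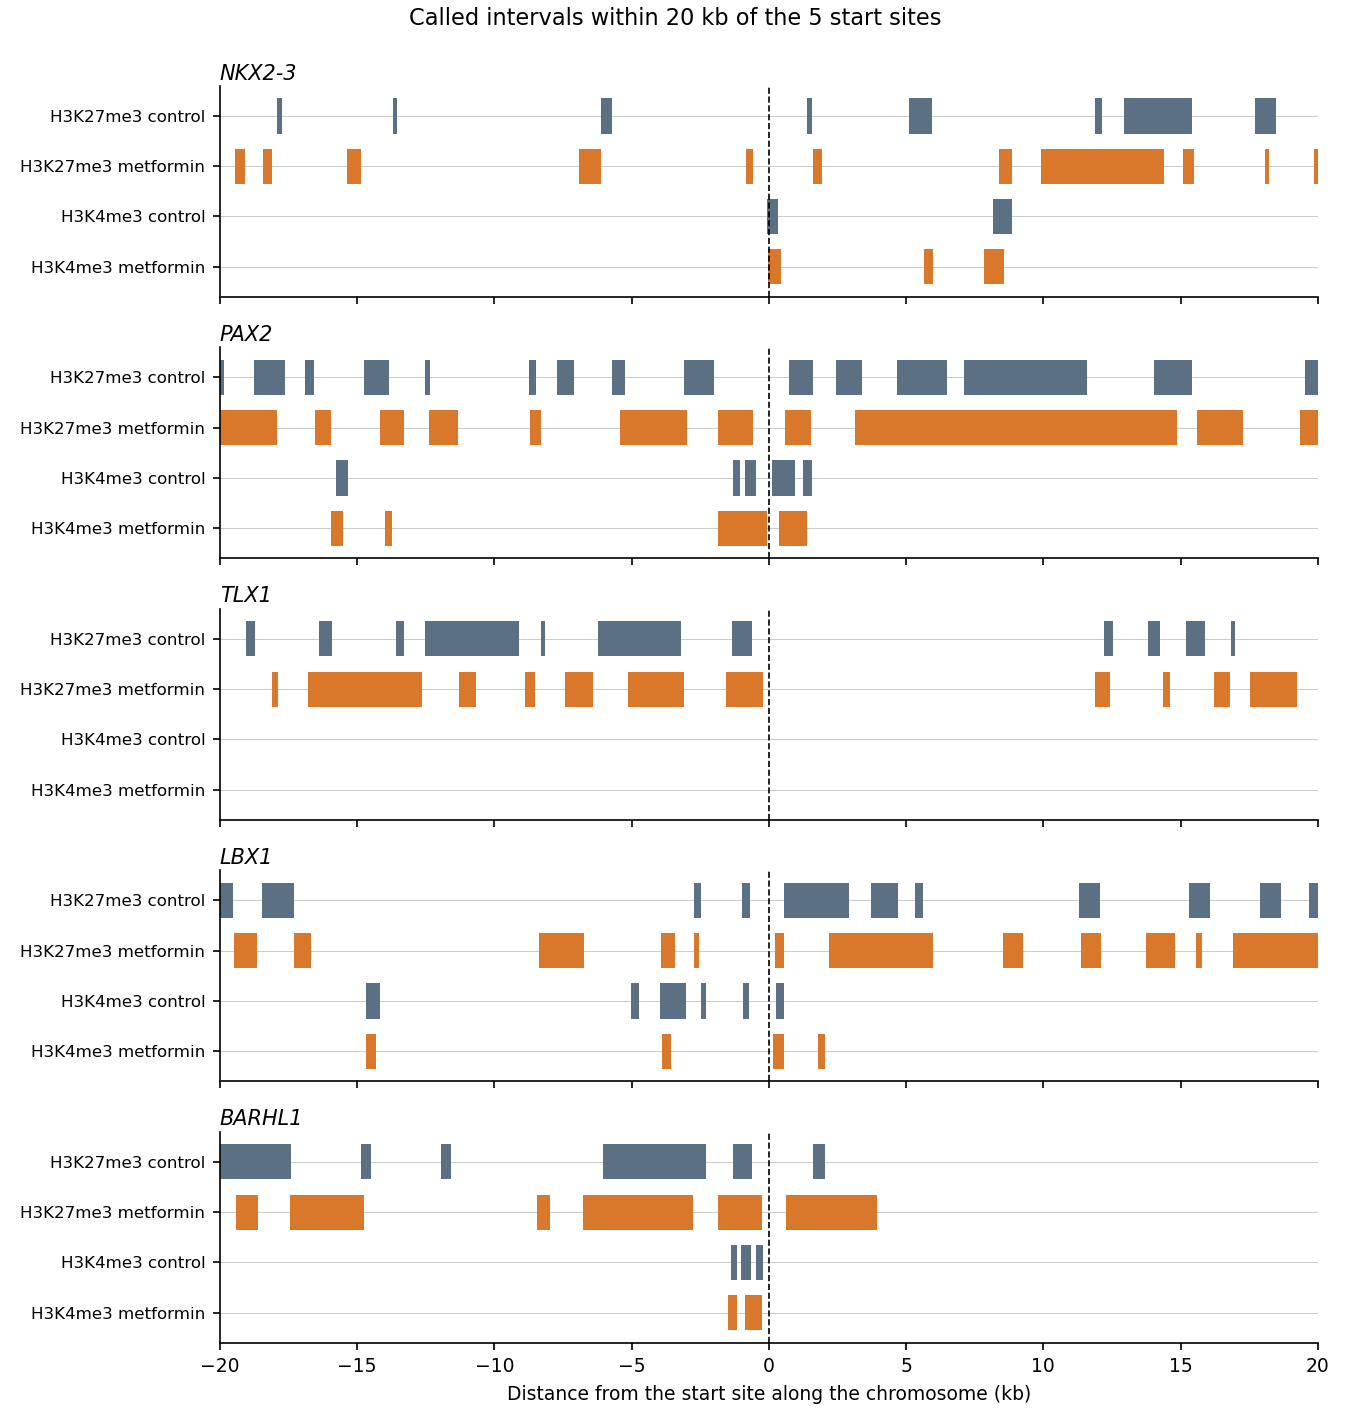
Called intervals of both marks (rows) in control (blue-grey) and metformin (orange) cells, by distance from the start site along the chromosome (kb, dashed line at 0; 1 library per row). H3K27me3 leaves the start itself free at all 5 genes in both lists, H3K4me3 stands within 254 bp of it at 4 genes, and TLX1 has no H3K4me3 and no call of either mark until 11895 bp after its start.

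None of the 5 start sites lay inside an H3K27me3 interval in either list, and the distance from the start to the nearest one was shorter after metformin at each gene. At NKX2-3 it was 1401 bp in the control list and 589 bp in the metformin list, against 718 and 584 bp at PAX2, 615 and 205 bp at TLX1, 570 and 223 bp at LBX1, and 623 and 233 bp at BARHL1. Of 3853 tiles with at least 4 kb of control H3K27me3 whose centre was free in both lists, 48.1% had a shorter distance after metformin. This measure comes from the contrast that chose the genes and was not tested. With intervals within 1 kb merged, the BARHL1 start lay inside metformin H3K27me3. At NKX2-3 the nearest metformin interval had a value under 1.5, and among intervals of 1.5 or more the distances were 1401 bp (control) and 1609 bp (metformin). By the same limit the TLX1 control distance was 8139 bp and that of BARHL1 1622 bp, with the metformin distances as before. The whole free stretch around the start was narrower at 4 genes, from 7.11 to 2.20 kb at NKX2-3, from 2.70 to 1.18 kb at PAX2, from 12.8 to 12.1 kb at TLX1 and from 2.24 to 0.843 kb at BARHL1. At LBX1 it was wider, 1.27 kb in control and 2.77 kb after metformin, since the control interval from -989 to -702 had no partner. The free stretch also comes from the contrast that chose the genes, and no tile share is given for it.

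By distance, H3K27me3 covered 17.7% of the sequence within 1 kb of the 5 starts in control cells and 33.5% after metformin. From 1 to 2 kb the shares were 28.5% and 41.5%, from 2 to 5 kb 30.2% and 44.9%, from 5 to 10 kb 21.1% and 28.6%, and from 10 to 20 kb 22.7% and 36.2%. The higher metformin cover thus ran through all 5 zones. H3K27me3 was thinnest at the start in control cells, and in the metformin list it was thinnest between 5 and 10 kb.

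The lists placed H3K27me3 on partly different sequence. Over the 5 windows 26.6 kb was common to both lists, 20.3 kb was in control alone and 44.9 kb in metformin alone. The common part made up 56.7% of the control and 37.2% of the metformin length, against 43.1% and 39.5% over the whole lists. Of the metformin-only length, 75.9% lay within 1 kb of a control interval, from 62.6% at NKX2-3 to 85.6% at PAX2. No such share is given for all uncovered sequence of the windows, which held 51 control intervals, so nearness to them was not tested. Counted by intervals, 35 of 51 control intervals (68.6%, exact Clopper-Pearson 95% interval 54.1 to 80.9) were overlapped by at least 1 bp of the metformin list, against 48.3% of the whole control list. In the metformin list 27 of 51 were overlapped by control (52.9%, 38.5 to 67.1), against 46.3% of the whole list. These confidence intervals cover counting error only and treat neighbouring intervals as independent. The genes were chosen for more metformin H3K27me3, which favours overlap of control intervals, so the difference from the whole list was not tested. Under a rule of 50% overlap in place of 1 bp the shares were 47.1% in control and 33.3% after metformin. No whole-list share is given by that rule.

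H3K4me3, which had no part in the choice, stood close to 4 of the 5 starts in both lists. NKX2-3 was the only gene whose start lay inside an interval, chr10:101292618-101293028 in control (411 bp, −log10 q 5.44) and chr10:101292675-101293148 after metformin (474 bp, 5.67). The nearest interval lay 116 bp from the PAX2 start in control and 63 bp after metformin, 254 and 157 bp from the LBX1 start, and 196 and 234 bp from the BARHL1 start. TLX1 had none within 20 kb. Its nearest lay 30691 bp away in control and 30711 bp away after metformin, inside stretches of 94.0 kb without any call in both lists.

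H3K4me3 covered length was higher in some members and lower in others. At PAX2 it was 2269 bp in the control list and 3471 bp in the metformin list (1.53 times), 1117 and 1533 bp at NKX2-3 (1.37 times), 841 and 940 bp at BARHL1 (1.12 times), and 2445 and 1362 bp at LBX1 (0.557 times). PAX2 and NKX2-3 were thus called higher by the same limit, as were 26.1% of 12241 tiles with at least 1 kb of control H3K4me3. PAX2 was not called with intervals within 1 kb merged (1.17 times), and NKX2-3 was not called relative to the whole list (1.23 times). LBX1 was called lower, as were 8.32% of tiles, and 1.85% of tiles had a ratio under its own. BARHL1 was under the tile minimum of 1 kb and was not called. Over the windows together H3K4me3 covered 6672 bp in the control list and 7306 bp in the metformin list (1.10 times, where the whole list gave 1.12), at mean values of 4.49 and 7.92, against 25.5 and 30.3 over the whole lists. With intervals closer than 1 kb merged the sum was lower after metformin (0.775 times), with 4743 and 1362 bp at LBX1, so its direction depended on how gaps were treated.

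At PAX2, 4 short control intervals of 256 to 838 bp around the start, each with a value of 4.55, were matched by 2 wider ones after metformin, chr10:102503625-102505405 (1781 bp, 5 sub-peaks, 10.2) and chr10:102505833-102506846 (1014 bp, 7.88). A value of 4.55 exceeded 39.2% of the control list and 10.2 exceeded 61.4% of the metformin list, so these calls were near the middle of their lists. At BARHL1, 3 control intervals of 210 to 348 bp before the start faced 2 after metformin, of which chr9:135457120-135457759 was the longer (640 bp, 9.58). At NKX2-3 a second site near +8 kb was called in both lists (706 bp in control, 734 bp after metformin), and 325 bp at chr10:101298338-101298662 were called after metformin alone. Within the windows the wider PAX2 and BARHL1 intervals bridged gaps of the control list.

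At LBX1 the lower H3K4me3 cover came from intervals past the start in the direction of the gene. The control interval chr10:102984767-102985701 (935 bp, 7.59) had a metformin counterpart of 356 bp, and 3 other control intervals, of 292, 166 and 217 bp with values of 2.55, 1.78 and 3.53, had none. The interval nearest the start was kept, 314 bp long in the control list and 411 bp in the metformin list, and a metformin-only interval of 232 bp had a value of 1.84. All 3 lost intervals had values under 5. Among intervals of 5 or more, LBX1 had 935 bp in control and 1130 bp after metformin, 1.21 times as much.

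Over the 5 windows, 13 of 16 control H3K4me3 intervals (81.3%, 54.4 to 96.0) were overlapped after metformin, against 77.3% of the whole list. Of the 13 metformin intervals 10 were overlapped in control (76.9%, 46.2 to 95), against 67.3%. With both lists limited to values of 5 or more that share was 33.3%, 3 of 9, but only 3 control intervals were then left. No whole-list share is given at that limit. The 3 control intervals without a partner were all at LBX1, and the 3 metformin intervals were 1 each at NKX2-3, PAX2 and LBX1.

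More of the members' H3K4me3 lay under H3K27me3 in the metformin lists. In control cells 1288 bp carried both marks, 19.3% of the H3K4me3 length, and after metformin 4111 bp, 56.3%. The ratio of these lengths was 3.19, and 2.09 with intervals within 1 kb merged. Over the whole lists the shares were 1.04% and 1.96%. In the windows themselves H3K27me3 covered 23.4% of the sequence in control cells and 35.7% after metformin, so whole-list shares are not a matched comparison. By gene, both marks covered 574 bp in control and 2288 bp after metformin at PAX2, 217 and 686 bp at LBX1, 497 and 940 bp at BARHL1, and 0 and 197 bp at NKX2-3. At BARHL1 those 940 bp were all of its metformin H3K4me3. Of the H3K4me3 intervals, 5 of 16 in control and 9 of 13 after metformin met H3K27me3, against 2.78% and 4.55% of the whole lists.

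The H3K27me3 side of this measure belongs to the contrast that chose the genes. Control H3K4me3 set against the metformin H3K27me3 list gave 3253 bp, and metformin H3K4me3 set against the control H3K27me3 list gave 1709 bp. The choice of genes with more metformin H3K27me3 favours the first value, so these lengths do not divide the difference between the marks. At PAX2, 1260 bp of the 1781 bp H3K4me3 interval before the start were under H3K27me3 after metformin, while the 2 control intervals before the start, 256 and 407 bp long, had none. At LBX1, 330 of the 411 bp next to the start were under H3K27me3 after metformin and none of the 314 bp in control. The interval over the NKX2-3 start carried no H3K27me3 in either list.

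**Figure D4:**
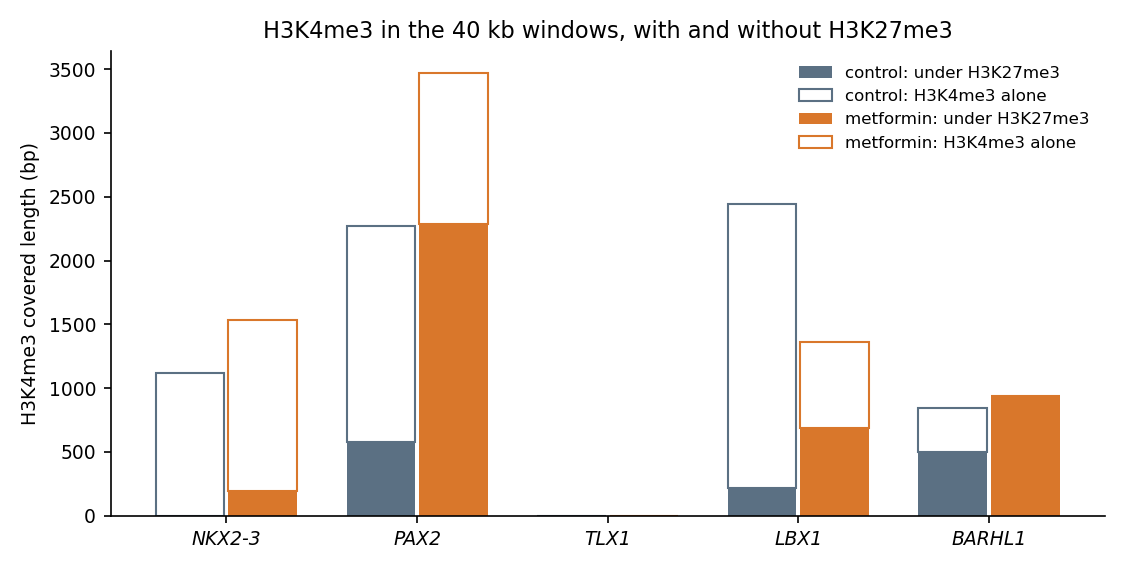
H3K4me3 covered length (bp) within 20 kb of each start site, divided into the part under H3K27me3 of the same condition (filled) and the part without it (open), in control (blue-grey) and metformin (orange) cells, 1 library per mark and condition. The filled part is larger after metformin at the 4 genes with H3K4me3 and makes up the whole bar at BARHL1 (940 bp).

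The surrounding megabases were also more covered, and the members held part of the difference. The chromosome 10 megabase had 202 kb of H3K27me3 in the control list and 266 kb in the metformin list. The parts of the PAX2, TLX1 and LBX1 windows inside it, 11.1% of its length, held 15.3% of the control cover and 22.4% of the difference. They had 30.9 and 45.2 kb, a ratio of 1.47, and in the rest of the megabase the ratio was 1.29. The LBX1 window runs past the end of the megabase, and the part beyond was left out here. The 100 kb step with PAX2 was the most covered of the megabase (51.0 and 65.5 kb) and had the largest difference (14.5 kb), followed by the step with LBX1 (13.2 kb). In 2 steps, starting 100 and 700 kb into the megabase, neither list had any H3K27me3, and H3K4me3 covered 14.6 and 15.3 kb in control.

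On chromosome 9 the BARHL1 window was not where most of the difference lay. Its megabase had 67.1 kb of H3K27me3 in the control list and 115 kb in the metformin list, and the BARHL1 window held 12.1% of the control cover and 10.1% of the difference. Its ratio of 1.59 was below that of the rest of the megabase, 1.73. The largest difference there, 14.4 kb, was in the first 100 kb step. In the megabase with NKX2-3, 101 to 102 Mb, the cover was 34.8 and 39.0 kb, and the 100 kb step that holds the gene had 22.6 kb in the control list and 22.5 kb in the metformin list.

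**Figure D5:**
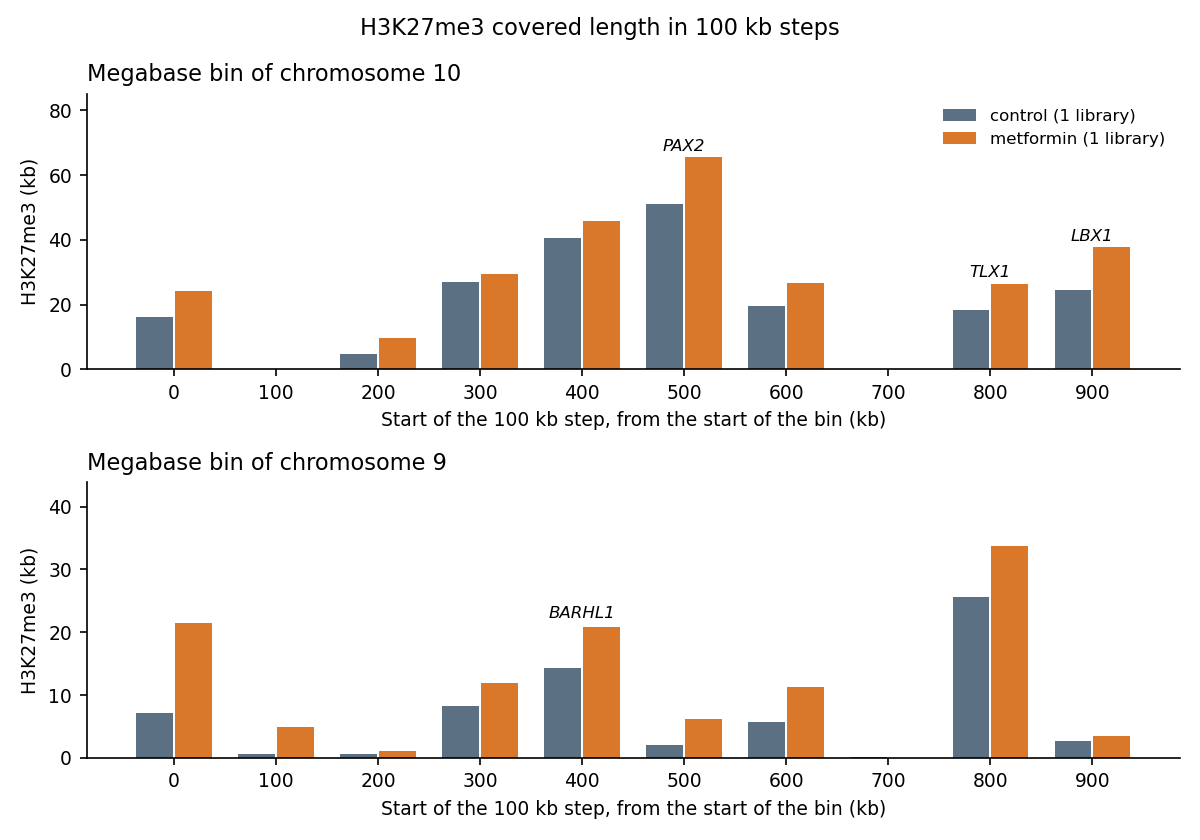
H3K27me3 covered length (kb) in 100 kb steps of the 2 megabases that chose the genes, 102 to 103 Mb of chromosome 10 (top) and 135 to 136 Mb of chromosome 9 (bottom), for 1 control and 1 metformin library, with the steps that hold a start site named. The metformin bar is higher in each step with a start site, with the step of PAX2 the highest. It is also higher in the other steps with H3K27me3, except that starting at 700 kb on chromosome 9 (0.182 kb in control, 0 after metformin). On chromosome 10, 2 steps hold no H3K27me3.

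The files give no read counts, so the depth behind these lists is unknown. The metformin lists were the longer ones for both marks, and the part of depth in these differences was not tested. With the longer H3K4me3 list cut by value to the number of intervals of the shorter, the H3K4me3 covered lengths of the 5 windows stayed the same. This cut, from 53454 to 50585 intervals, could remove none of the windows' intervals, the weakest of which exceeded 7.12% of its list. It therefore says nothing about depth. All H3K27me3 values of the windows lay between 1.13 and 3.08, near the inferred calling limit of 1.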

How the data were processed

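Peak lists of 4 ChIP libraries were used. The 2 inputs were not analysed here. Per the submitters' processing notes, Trimmomatic 0.38, Bowtie and MACS2 were used, on hg19, with options not given in the sources used here. Per the labels, each list is 1 library. The 1 deposited value per line was read as a −log10 q, inferred from the values: minima just above 1.30 (q = 0.05) for H3K4me3 and above 1 (q = 0.1, broad mode) for H3K27me3. Lists were not normalized to each other, so values set side by side show no change.

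Lines with the same interval were joined, keeping the highest value, and clipped to 20 kb on each side of the start sites, which come from the rule for the members. Coordinates are 1-based. Tiles of 40 kb over all chromosomes gave the background. Sums, overlaps and distances were tested on simulated data. All 5 members are described. Per gene and list the longest interval, that nearest to the start and the longest of 1 list alone are named. The members and measures were chosen with earlier results of these data known. Genes of similar pattern were not sought, since gene positions on hg19 were not used here. Python 3.11.15, pandas 2.3.3, numpy 2.4.6, scipy 1.17.1 and matplotlib 3.10.9 were used.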

Additional observations from a re-analysis of the deposited data

How the results depend on the processing

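No paired analysis was possible because each mark and condition had 1 library, so none could be left out. Summed H3K27me3 cover stayed higher after metformin in each of the 6 alternatives run, at ratios from 1.40 to 1.73. By gene, 29 of 30 such values were above 1, and the exception was TLX1 within 10 kb (0.992). An increase of this covered length chose the genes, and the alternatives reuse the same lists, so these counts say nothing beyond the choice. TLX1 reached 2.01 at values of 1.5 or more. Summed H3K4me3 cover (1.10) fell below 1 with intervals within 1 kb merged (0.775) and relative to the whole list (0.980), and became 3.55 at values of 5 or more, where PAX2 had no control H3K4me3. H3K4me3 at LBX1 turned from 0.557 to 1.21 at that limit. Length under both marks (3.19 times) became 2.09 with merging and 10.9 at H3K4me3 values of 5 or more. Shared H3K27me3 intervals, when at least 50% had to be overlapped, were 47.1% in control and 33.3% after metformin, and at 1.5 or more 50% in control (17 of 34). Shared control H3K4me3 intervals were 100% with merging (8 of 8) and at 5 or more (3 of 3). Metformin ones were 33.3% (3 of 9) at 5 or more, where both lists were limited. Whole-list shares are not given for these settings. The distance from the start, with its alternatives, was examined after seeing the data. It was shorter after metformin at 5 members with merging, where the BARHL1 start was covered, and at 4 at values of 1.5 or more, NKX2-3 being the exception. The cause of these changes was not tested.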
